A study of Mus musculus with 36 samples.

Results

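The effect of macrophage coculture was measured in vector-carrying RM-1-BM cells that were treated with olaparib. RM-1-BM is a mouse prostate cancer cell line, and the empty vector (EV) is the control for a SPOP mutant that other cells of the series carry; the labels give the genotype of the vector cells as wild type. The libraries were chosen by their titles: 3 of vector cells grown with RAW264.7 macrophages and olaparib, and 3 of vector cells grown alone with olaparib, 6 of the 36 libraries in the series. RAW264.7 is a mouse macrophage cell line, and in a transwell coculture the cancer cells and the macrophages share medium through a porous membrane without mixing. Olaparib inhibits PARP enzymes, which attach ADP-ribose to proteins at DNA breaks, and both groups received it, so that the contrast leaves the effect of the drug itself aside. For comparison, the same coculture effect was taken from vector cells with the vehicle DMSO (3 libraries in coculture and 3 alone) and from cells that carry SPOP F133V, with olaparib (3 and 3). SPOP is the substrate adaptor of a cullin ubiquitin ligase and is often mutated in prostate cancer. The olaparib dose, the times, the cell ratio and the origin of the 3 libraries of a group are not stated in the labels, so the p-values measure the spread between libraries, which may be technical.

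Macrophages release cytokines that tumour cells can sense through the shared medium. Tumour necrosis factor signals through NF-kB, a family of transcription factors held back by IkB proteins whose own genes are NF-kB targets. Oncostatin M and interleukin 6 signal through the shared receptor subunit gp130 to the transcription factor STAT3, which drives acute phase genes. Interferons signal through a complex that holds STAT2 and IRF9 and binds the interferon-stimulated response element in front of antiviral and antigen presentation genes. The endoplasmic reticulum answers protein load with the unfolded protein response, in which ATF6 and XBP1 raise chaperone genes through their own promoter element.

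The 6 libraries held 35534916 to 40990244 gene counts, and 15962 genes passed the filter on low counts. Levels below are in CPM, read counts scaled to library size with TMM factors, given as mean ± SD of 3 libraries. Changes are log2 fold changes ± SE, coculture over alone, tested by edgeR's quasi-likelihood method; p-values were adjusted by Benjamini-Hochberg over all tested genes; a gene was called at an adjusted p under 0.05. The first principal component of the 6 libraries held 53% of the variance and separated the 2 groups. Spop was at 119 ± 0.23 CPM in coculture and 111 ± 1.6 CPM alone, and gene counts do not show the F133V allele. The summed level of 24 macrophage lineage genes was 23.3 to 24.5 CPM in coculture and 26.2 to 27.9 CPM alone, against 18560 to 18670 CPM in the RAW264.7 libraries of the same coculture. In each coculture library 21 of the 24 were under 1 CPM, and C5ar1 was at 0 counts in all 6 libraries; those above 1 CPM were Cd68, Cd14 and Cd53, at 4.82, 6.51 and 8.13 CPM in coculture and 10.5, 4.91 and 7.47 CPM alone. Of 12 tested markers 1 rose and 2 fell, with a median of 0.22; Mpeg1 was at 0.638 CPM in coculture and 0.396 CPM alone, and Lyz1 at 0.338 CPM in coculture and 0.162 CPM alone, neither called. Lyz2 was at 0.844 ± 0.11 CPM in coculture and 0.761 ± 0.087 CPM alone, against 4350.0 CPM in those macrophages. Of the epithelial markers, Krt8, Krt18 and Krt19 were expressed, while Cdh1 stayed at or under 0.055 CPM in each coculture library; Vim, an intermediate filament gene of mesenchymal cells, was at 1148 ± 12 CPM in coculture and 1526 ± 20 CPM alone. RNA was taken from bulk cultures, so that fewer cells using a gene and less RNA of it per cell cannot be told apart.

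Coculture called 7034 of the 15962 genes (44.1%), 4077 higher (25.5%) and 2957 lower (18.5%). Most changes were small: the median called gene differed 1.19-fold, and 506 genes (7.19% of the calls) differed at least 2-fold, 201 higher (1.26% of tested genes) and 305 lower (1.91%). The 2 groups did not overlap in 8745 genes, 54.8% of those tested, so that groups without overlap were common. The median over all tested genes was 0.005. Counts of list members below are to be read beside the shares of all tested genes, 25.5% higher and 18.5% lower. Against a change of at least 1.2-fold (glmTreat), 1738 genes were called, 912 higher and 826 lower. The lists with the highest medians were acute phase, interferon, MHC class I, chaperone and NF-kB genes, and those with the lowest were keratins and mitosis genes. Of the genes that were at least 2-fold higher, 60 of 201 were in 1 of the 29 lists used here, as were 23 of the 305 that were at least 2-fold lower. The genes that were at least 2-fold lower were mostly weakly expressed, with a median of 0.826 CPM in cells grown alone, against 2.43 CPM in coculture for those at least 2-fold higher.

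**Figure D1:**
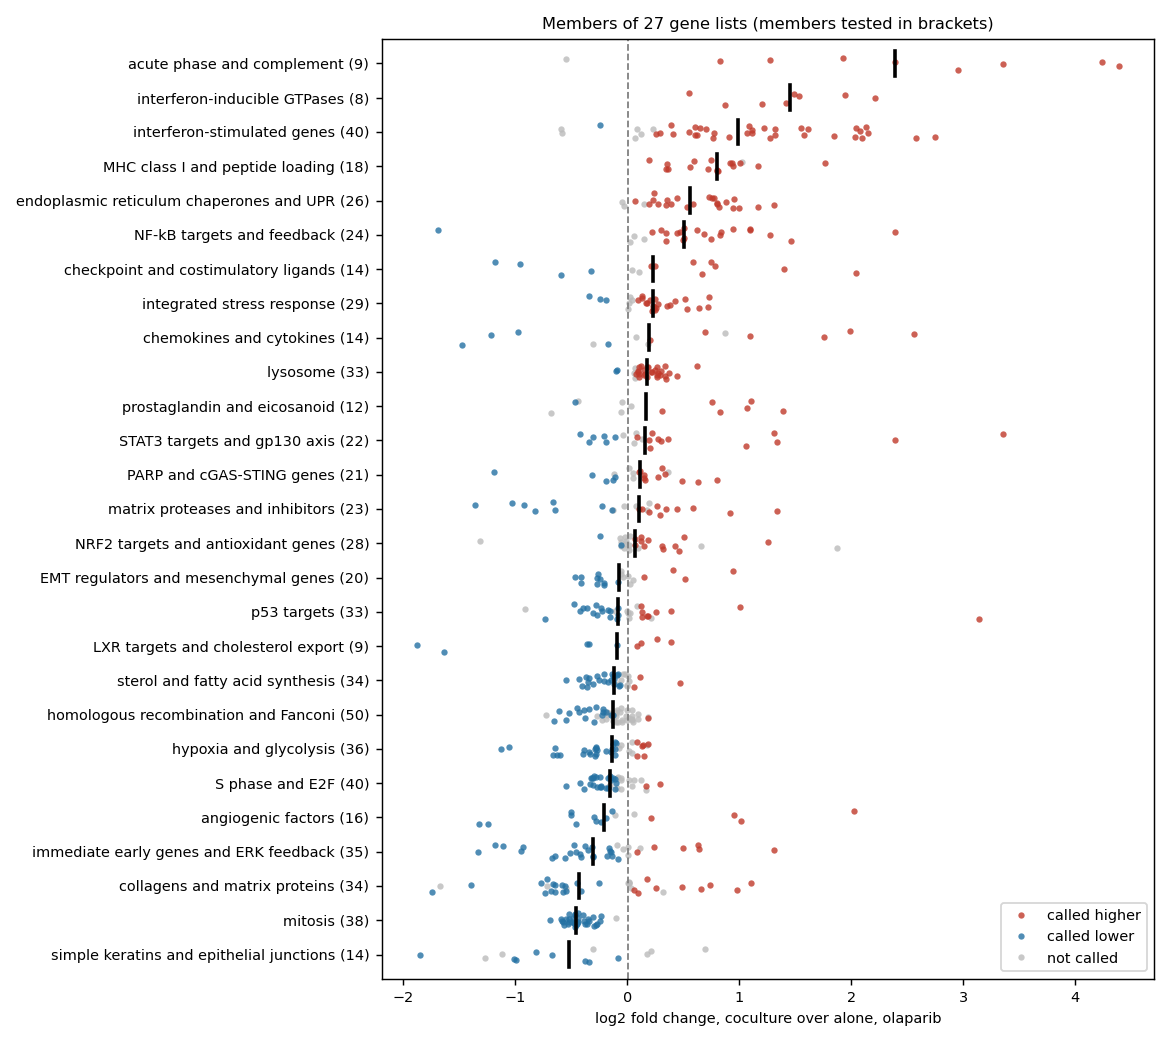
Log2 fold change (coculture over alone, olaparib) of each tested member of 27 gene lists, 1 point per gene, coloured by its call; black bars mark list medians and the dashed line the median of all tested genes. Acute phase, interferon, MHC class I, chaperone and NF-kB lists lie to the right, and mitosis genes lie left of 0 in a narrow band.

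Among well expressed genes, the largest rises were in Neurl3, Serpina3n and Oasl2. Serpina3n, a secreted protease inhibitor of the acute phase, had 36.5, 38.8 and 39 CPM in coculture, against 3.65, 3.79 and 3.75 CPM alone. The groups lay far apart, with a log2 fold change of 3.35 ± 0.07, adjusted p = 1.8e-30. Neurl3, a ubiquitin ligase gene, had 8.11, 7.66 and 8.05 CPM in coculture, against 0.724, 0.839 and 0.536 CPM alone, a log2 fold change of 3.49 ± 0.14. Tnfrsf9, the costimulatory receptor 4-1BB, averaged 20.7 ± 1.1 CPM in coculture and 4.29 ± 0.35 CPM alone, and Gdpd5, a glycerophosphodiesterase gene, 14 ± 0.31 CPM in coculture and 3.5 ± 0.48 CPM alone. Sema3f, a secreted semaphorin that repels endothelial cells and axons, had 19.2, 19.6 and 19 CPM in coculture, against 4.7, 4.73 and 4.72 CPM alone. The 3 libraries of each group lay close together, and the change was 2.03 ± 0.07, adjusted p = 1.8e-23.

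NF-kB targets rose together. Of 24 tested members of the NF-kB list, 20 rose and 1 fell, with a median of 0.51, against 0.005 over all tested genes. Bcl3, an atypical IkB protein that binds p50 and p52 in the nucleus, had 19.9, 20.4 and 19.7 CPM in coculture, against 3.51, 4.32 and 3.62 CPM alone, without overlap between the groups. Its log2 fold change was 2.39 ± 0.09, adjusted p = 1.1e-23. Relb, the subunit of the non-canonical pathway, had 26.6, 25.6 and 26.8 CPM in coculture, against 9.04, 9.91 and 9.7 CPM alone, and its partner Nfkb2 averaged 107 ± 0.64 CPM in coculture and 75.2 ± 0.75 CPM alone. Both rose, by 1.46 ± 0.05 and 0.51 ± 0.03 on the log2 scale. Nfkbia, which encodes the inhibitor IkB alpha, averaged 44.6 ± 1.7 CPM in coculture and 25 ± 2.4 CPM alone, with a log2 fold change of 0.84 ± 0.05. Vcam1, an adhesion molecule for leukocytes, averaged 74.8 ± 0.48 CPM in coculture and 35 ± 0.49 CPM alone, with a change of 1.10 ± 0.04. Csf1, the growth factor of macrophages, had 120.1, 113 and 115 CPM in coculture, against 53.7, 54.3 and 55.3 CPM alone, a change of 1.09 ± 0.03 with adjusted p = 1.1e-27. Another feedback gene was not called: Tnfaip3, which encodes the ubiquitin editor A20, averaged 15.2 ± 0.12 CPM in coculture and 14.9 ± 0.45 CPM alone, adjusted p = 0.76. The 1 member that fell was Gadd45b, a stress gene that is also a TGF-beta target, at a log2 fold change of -1.69; it was named after its value was seen.

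Tnf was at 61.1 CPM in the RAW264.7 cells of this coculture and at 0 counts in the 6 cancer-cell libraries. Osm, the gene of oncostatin M, was at 21.7 CPM in the macrophages and at 0 counts in the cancer cells, and Il1b was at 0.019 CPM in the macrophages. A count of 0 over 3 libraries allows up to 0.0272 CPM in coculture and 0.0261 CPM alone, by counting error only. The part of these ligands in the rises was not tested.

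The promoters of Csf1 and Nfkbia, the 250 bases before the start, are shown because both genes rose and are known NF-kB targets. The sequences are from RefSeq, build GRCm38.p6: Csf1 at chr3:107760470-107760719 and Nfkbia at chr12:55492648-55492897, both on the minus strand, written 5′ to 3′ with no part in capitals.
Csf1: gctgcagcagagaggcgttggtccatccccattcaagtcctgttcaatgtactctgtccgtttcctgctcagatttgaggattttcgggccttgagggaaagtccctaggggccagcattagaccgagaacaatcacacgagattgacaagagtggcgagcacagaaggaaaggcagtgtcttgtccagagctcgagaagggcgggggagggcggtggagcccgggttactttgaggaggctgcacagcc
Nfkbia: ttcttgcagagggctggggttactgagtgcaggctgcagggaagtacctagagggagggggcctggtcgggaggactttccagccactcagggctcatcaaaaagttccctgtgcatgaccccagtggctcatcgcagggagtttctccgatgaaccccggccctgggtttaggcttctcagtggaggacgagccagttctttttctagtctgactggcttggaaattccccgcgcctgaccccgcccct
No binding site is marked, and the data hold no measurement of a factor on these promoters.

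Chemokine and cytokine genes moved in both directions. Most called chemokines rose, but another, not named here, fell slightly, at a log2 fold change of -0.17. The other falls were in cytokines, the lowest at -1.47. Of 30 listed chemokines and cytokines 14 were tested, of which 6 rose and 4 fell, with a median of 0.20. Ccl2, which attracts monocytes, had 10.3, 11.6 and 11.2 CPM in coculture, against 2.57, 3.23 and 2.52 CPM alone. Its level in the lowest coculture library was above each library grown alone, with a change of 1.99 ± 0.11, adjusted p = 2.8e-18. Ccl7, another monocyte attractant, averaged 10 ± 0.64 CPM in coculture and 2.99 ± 0.31 CPM alone with a change of 1.75 ± 0.11. Cxcl1, a neutrophil attractant, averaged 3.57 ± 0.4 CPM in coculture and 0.608 ± 0.15 CPM alone with a change of 2.56 ± 0.20. Ccl5 was at 0.203 ± 0.057 CPM in coculture and 0.255 ± 0.13 CPM alone, adjusted p = 0.68, and Lif at 21.8 ± 0.24 CPM in coculture and 20.7 ± 0.31 CPM alone, adjusted p = 0.21. Tslp, an epithelial cytokine, fell to 3.79 ± 0.32 CPM in coculture, against 8.85 ± 0.47 CPM alone.

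The gp130 axis moved in part. Of 22 tested members of the STAT3 and gp130 list, 12 rose and 6 fell, with a median of 0.16. Osmr, the receptor chain for oncostatin M, had 14.7, 12.9 and 13.5 CPM in coculture, against 6.87, 6.18 and 6.73 CPM alone, without overlap. Its change was 1.06 ± 0.08, adjusted p = 6.1e-14. Cebpd, a transcription factor gene induced by STAT3, averaged 53.4 ± 1.5 CPM in coculture and 21.1 ± 0.58 CPM alone, a change of 1.34 ± 0.05. Stat3 itself averaged 163 ± 4.7 CPM in coculture and 132 ± 1.2 CPM alone and its feedback inhibitor Socs3 40 ± 2.2 CPM in coculture and 31.1 ± 0.92 CPM alone, changes of 0.30 ± 0.03 and 0.36 ± 0.04. Myc, the growth regulator, had 27, 24.9 and 26.2 CPM in coculture, against 10.2, 10.2 and 11.1 CPM alone, a change of 1.31 ± 0.07 with adjusted p = 2e-19.

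Acute phase and complement genes had the highest list median, 2.39 over the 9 tested of 23 listed, of which 8 rose and 0 fell. A median over these tested members describes expressed genes only, since 14 members stayed below the filter. The filter could be passed through a single group of libraries. A member near 0 CPM alone could therefore enter through its level in coculture, and the rank of this median depends on that. C1s1 and C1ra encode the proteases of the first complement component. C1s1 had 24.2, 25.8 and 25.5 CPM in coculture, against 4.63, 4.68 and 5.09 CPM alone, and C1ra averaged 7.93 ± 0.17 CPM in coculture and 2.07 ± 0.32 CPM alone. Cp, the copper carrier ceruloplasmin, averaged 98.9 ± 3.3 CPM in coculture and 55.8 ± 0.81 CPM alone. C3, the central complement protein, was low at 1.83 ± 0.21 CPM in coculture and 0.0843 ± 0.055 CPM alone, with a change of 4.39 ± 0.34. Saa3, an acute phase apolipoprotein, had 0.646, 0.399 and 0.55 CPM in coculture, against 0.0467, 0 and 0.0268 CPM alone.

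**Figure D2:**
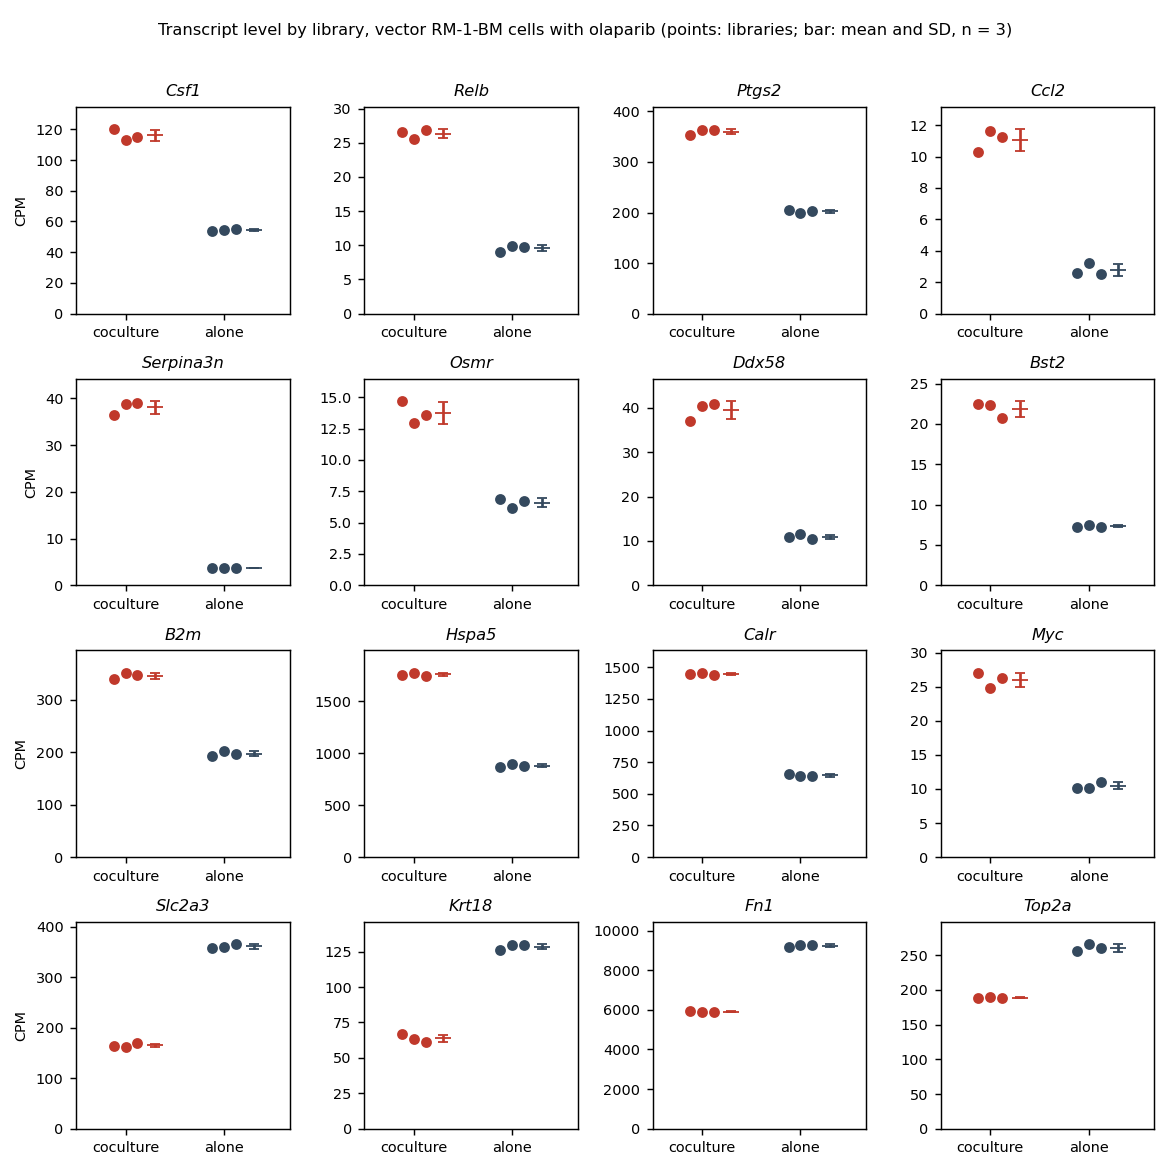
CPM of 16 genes in each library of vector cells with olaparib, coculture left of alone; points are libraries, and the bar beside them is the mean with its SD (n = 3). The groups do not overlap in any of the 16 panels, and Slc2a3, Krt18, Fn1 and Top2a are the 4 that were lower in coculture.

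Interferon-stimulated genes rose. Of 40 tested members 33 rose and 1 fell, 20 of them at least 2-fold, with a median of 0.99. Ddx58, the gene of the RNA sensor RIG-I, had 37.1, 40.5 and 40.9 CPM in coculture, against 11, 11.5 and 10.5 CPM alone. The groups did not overlap, with a change of 1.85 ± 0.05, adjusted p = 9.7e-27. Bst2, the virus tether tetherin, had 22.5, 22.4 and 20.8 CPM in coculture, against 7.24, 7.45 and 7.29 CPM alone, a change of 1.58 ± 0.07. Oasl2, a relative of the oligoadenylate synthetases, rose to 5.03 ± 0.28 CPM in coculture, against 0.842 ± 0.26 CPM alone. Parp14, a mono-ADP-ribosyl transferase, averaged 9.38 ± 0.41 CPM in coculture and 2.28 ± 0.23 CPM alone, and Xaf1, a pro-apoptotic interferon target, 5.58 ± 0.61 CPM in coculture and 1.28 ± 0.26 CPM alone. Isg15, a ubiquitin-like modifier, averaged 3.15 ± 0.23 CPM in coculture and 1.03 ± 0.081 CPM alone, a change of 1.61 ± 0.15. The transcription factors Stat2, Irf7 and Irf9 rose by 0.65 ± 0.04, 1.55 ± 0.15 and 0.60 ± 0.05. Ifit1 and Ifit3, textbook interferon targets, were not called. Ifit1 averaged 0.541 ± 0.078 CPM in coculture and 0.811 ± 0.22 CPM alone, adjusted p = 0.097, and Ifit3 0.356 ± 0.05 CPM in coculture and 0.302 ± 0.021 CPM alone, adjusted p = 0.66. The 1 member that fell was Ifi204 at -0.24, named after its value was seen.

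Ifnb1 and Ifna4 were at 0 counts in the 6 cancer-cell libraries and in the 3 RAW264.7 libraries, where 0 counts allow up to 0.027 CPM. Ifng had 0.0258 CPM in 1 coculture library and 0 counts in the other 5.

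The interferon-inducible GTPases, which coat and break vacuoles that hold pathogens, showed the same direction. Of 17 listed genes 8 were tested and 8 rose, with a median of 1.45. Irgm2 had 6.43, 5.69 and 5.96 CPM in coculture, against 2.24, 2.34 and 1.85 CPM alone, a change of 1.49 ± 0.12. Irgm1 averaged 38 ± 2.5 CPM in coculture and 25.9 ± 1.5 CPM alone, Gbp7 4.87 ± 0.62 CPM in coculture and 1.82 ± 0.19 CPM alone, Igtp 2.43 ± 0.12 CPM in coculture and 0.841 ± 0.11 CPM alone and Gbp3 2.2 ± 0.076 CPM in coculture and 0.573 ± 0.12 CPM alone. The groups did not overlap for any of these 5.

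The promoters of Isg15, Bst2 and Irgm2 are shown as those of 3 interferon-inducible genes that rose together. They lie at chr4:156200819-156201068 (minus strand), chr8:71537473-71537722 (minus strand) and chr11:58214727-58214976 (plus strand) in GRCm38.p6.
Isg15: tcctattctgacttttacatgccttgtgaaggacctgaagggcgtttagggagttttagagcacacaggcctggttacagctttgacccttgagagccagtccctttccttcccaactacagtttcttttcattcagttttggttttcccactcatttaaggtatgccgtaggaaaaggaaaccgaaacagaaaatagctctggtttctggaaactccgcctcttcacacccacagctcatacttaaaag
Bst2: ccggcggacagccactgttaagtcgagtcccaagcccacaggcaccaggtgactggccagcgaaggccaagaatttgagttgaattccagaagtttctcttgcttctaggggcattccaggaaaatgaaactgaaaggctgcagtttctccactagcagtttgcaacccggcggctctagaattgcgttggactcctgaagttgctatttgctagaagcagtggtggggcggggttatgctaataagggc
Irgm2: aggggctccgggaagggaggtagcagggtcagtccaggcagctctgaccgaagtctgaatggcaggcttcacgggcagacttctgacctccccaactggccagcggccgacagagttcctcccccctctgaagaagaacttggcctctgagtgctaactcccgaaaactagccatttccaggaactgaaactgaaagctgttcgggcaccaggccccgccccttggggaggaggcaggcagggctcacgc
The 3 lie on different chromosomes, and no element is marked in them.

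Genes of MHC class I and peptide loading, which show peptides to T cells, rose in 17 of 18 tested members, with a median of 0.80. B2m, the light chain of class I molecules, had 339, 351 and 347 CPM in coculture, against 192, 203 and 197 CPM alone. The spread within groups was small beside the gap, and the change was 0.81 ± 0.03, adjusted p = 5.5e-22. H2-D1, a classical heavy chain, averaged 143 ± 1.1 CPM in coculture and 71.3 ± 1.4 CPM alone, a change of 1.01 ± 0.03, while H2-K1, the other one, changed less, with 196 ± 1.3 CPM in coculture and 172 ± 2.8 CPM alone and 0.19 ± 0.02. Reads of class I heavy chains can be shared between these similar genes. Tapbp, which holds the peptide loading complex together, averaged 160.4 ± 3.7 CPM in coculture and 92 ± 0.87 CPM alone, and Nlrc5, the transactivator of class I genes, 6.77 ± 0.37 CPM in coculture and 3.54 ± 0.08 CPM alone. Tap1, a subunit of the peptide transporter, was near the limit of detection at 0.272 ± 0.14 CPM in coculture and 0.131 ± 0.069 CPM alone, adjusted p = 0.15.

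Chaperones of the endoplasmic reticulum rose in 23 of 26 tested members of the list, and 0 fell (1 with library size alone or with DESeq2), with a median of 0.56. Hspa5, the gene of the master chaperone BiP, had 1751, 1774 and 1742 CPM in coculture, against 869, 891 and 879.6 CPM alone. Calr, the lectin chaperone calreticulin, had 1450.1, 1458 and 1439 CPM in coculture, against 659, 641 and 640.1 CPM alone. Neither pair of groups overlapped, and the changes were 1.00 ± 0.02 and 1.16 ± 0.02, with adjusted p = 1.8e-30 and 1e-32. Pdia4 and Pdia3, disulfide isomerases that fold secreted proteins, averaged 290.1 ± 2.4 CPM in coculture and 157 ± 2.2 CPM alone and 823 ± 8.2 CPM in coculture and 473 ± 6.3 CPM alone. Manf, a secreted stress protein of the same compartment, averaged 189 ± 3.4 CPM in coculture and 98 ± 0.65 CPM alone.

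The promoters of Hspa5 and Calr are shown as those of the chaperone genes described first. They lie at chr2:34771840-34772089 (plus strand) and chr8:84846932-84847181 (minus strand) in GRCm38.p6.
Hspa5: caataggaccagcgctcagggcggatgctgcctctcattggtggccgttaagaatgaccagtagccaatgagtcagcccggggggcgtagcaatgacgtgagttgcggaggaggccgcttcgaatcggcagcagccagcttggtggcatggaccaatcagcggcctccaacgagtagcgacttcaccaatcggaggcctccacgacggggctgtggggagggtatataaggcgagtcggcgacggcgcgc
Calr: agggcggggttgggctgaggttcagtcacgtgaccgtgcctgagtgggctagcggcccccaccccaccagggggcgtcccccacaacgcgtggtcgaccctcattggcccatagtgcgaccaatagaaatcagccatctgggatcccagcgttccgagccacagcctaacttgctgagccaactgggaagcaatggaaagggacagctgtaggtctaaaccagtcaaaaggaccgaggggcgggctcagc
Of the tested genes 10039 had a promoter in the RefSeq table.

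The integrated stress response, which slows translation and raises ATF4 targets, showed small rises, with 22 of 29 tested members higher and 3 lower and a median of 0.23. Ddit3, the stress factor CHOP, had 341, 330.3 and 336 CPM in coculture, against 204, 202 and 207 CPM alone, a change of 0.72 ± 0.02. Wars, the tryptophanyl-tRNA synthetase gene, averaged 349 ± 1.5 CPM in coculture and 210.2 ± 3.1 CPM alone, and Ppp1r15a, which restores translation, 125 ± 2.1 CPM in coculture and 86.3 ± 0.76 CPM alone. Atf4 itself averaged 458 ± 0.47 CPM in coculture and 449.7 ± 5 CPM alone, adjusted p = 0.33. Of 28 NRF2 targets and antioxidant genes 12 rose and 2 fell, with a median of 0.07 (0.041 without coculture replicate 3); 1 fell without alone replicate 1, alone replicate 2 or coculture replicate 2. Nqo1, a quinone reductase, averaged 82.8 ± 1.8 CPM in coculture and 34.7 ± 0.73 CPM alone and rose by 1.26 ± 0.04, whereas Hmox1, the heme oxygenase gene, was at 147 ± 0.64 CPM in coculture and 144 ± 3 CPM alone, adjusted p = 0.42. Gclm, which modulates glutathione synthesis, was at 25.1 ± 0.86 CPM in coculture and 26.1 ± 0.91 CPM alone, adjusted p = 0.3. Lysosomal genes rose in 28 of 33 tested members and fell in 2, with a small median of 0.18. Lipa, the lysosomal acid lipase, averaged 53 ± 0.43 CPM in coculture and 34.5 ± 1 CPM alone, a change of 0.62 ± 0.04.

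Genes that signal to neighbouring cells changed in both directions. Of 12 prostaglandin and eicosanoid genes 6 rose and 1 fell, with a median of 0.17, or 0.113 without coculture replicate 2. Ptgs2, the inducible cyclooxygenase, had 354, 363 and 362 CPM in coculture, against 205, 199 and 203 CPM alone. Ptgs1, the constitutive one, averaged 220.2 ± 0.25 CPM in coculture and 105 ± 2.7 CPM alone. Both rose without overlap, by 0.83 ± 0.03 and 1.07 ± 0.03, and Pla2g4a, which frees arachidonic acid for them, rose by 0.75 ± 0.04. Ptges, the terminal prostaglandin E synthase, averaged 96.9 ± 2 CPM in coculture and 101 ± 3.8 CPM alone, adjusted p = 0.14. Of 14 checkpoint and costimulatory genes 8 rose and 4 fell, with a median of 0.23. Cd47, a signal against phagocytosis, averaged 131 ± 3.3 CPM in coculture and 82.2 ± 2.2 CPM alone, a change of 0.67 ± 0.03, and Lgals9, the gene of galectin 9, 10.3 ± 0.26 CPM in coculture and 5.99 ± 0.3 CPM alone. Nt5e, which makes adenosine, fell to 15.5 ± 0.99 CPM in coculture, against 30 ± 1.3 CPM alone. Cd274, the gene of PD-L1, was at 8.34 ± 0.8 CPM in coculture and 7.2 ± 0.71 CPM alone with adjusted p = 0.047, close to the threshold. Of 16 angiogenic factors 4 rose and 10 fell, with a median of -0.21; Vegfa averaged 776 ± 14 CPM in coculture and 883 ± 1.4 CPM alone and Angpt1, which stabilises vessels, 2.02 ± 0.075 CPM in coculture and 5.07 ± 0.53 CPM alone.

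Mitosis genes fell by small and even amounts, and S phase genes less evenly. Of 38 mitosis genes 37 fell and 0 rose, with a median of -0.46 and a range of -0.69 to -0.10; the 1 not called was Birc5, named after its value was seen. Top2a, the topoisomerase that untangles chromosomes, had 188, 189.9 and 188 CPM in coculture, against 255, 266 and 260.0 CPM alone. The coculture libraries lay below each library grown alone, with a change of -0.46 ± 0.03, adjusted p = 1.5e-18. Anln, a scaffold of the cleavage furrow, averaged 87.1 ± 0.39 CPM in coculture and 131 ± 1.3 CPM alone, and Kif11, the motor that parts the spindle poles, 46.5 ± 0.6 CPM in coculture and 67 ± 0.089 CPM alone. Mki67, the proliferation marker, averaged 172 ± 4.5 CPM in coculture and 219 ± 5.2 CPM alone. Of 40 genes of S phase 25 fell, 2 rose and 13 were not called, with a median of -0.15 and a range of -0.55 to 0.29. Uhrf1, which copies DNA methylation at the fork, averaged 47 ± 1.4 CPM in coculture and 61.3 ± 1.7 CPM alone, and Rrm2, a subunit of ribonucleotide reductase, 80.7 ± 1.9 CPM in coculture and 101 ± 2.9 CPM alone.

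Homologous recombination and Fanconi genes, on which cells lean when PARP is inhibited, fell in 17 of 50 tested members and rose in 1, with a median of -0.13. The share called in either direction was 36%, against 44.1% of all tested genes. By direction, 18.5% of all tested genes were lower and 25.5% higher. Brca2, a mediator of recombination, had 21.9, 25.4 and 22.4 CPM in coculture, against 36.3, 35.8 and 37.9 CPM alone, a change of -0.66 ± 0.05. Blm, a helicase that dissolves joined strands, averaged 11.9 ± 0.73 CPM in coculture and 18 ± 0.34 CPM alone, and Fancd2, the clamp of the crosslink pathway, 12.8 ± 0.46 CPM in coculture and 18.8 ± 1.3 CPM alone. Brca1, which acts in the same pathway, fell, with a change of -0.22 ± 0.05. Of 33 p53 targets 9 rose and 16 fell, with a median of -0.08. Cdkn1a, the cell cycle inhibitor p21, had 361, 351 and 359 CPM in coculture, against 439.5, 438 and 443 CPM alone. The groups did not overlap, and the change was -0.30 ± 0.02. The death receptor gene Fas moved the other way, averaging 2.24 ± 0.16 CPM in coculture and 0.251 ± 0.11 CPM alone, and Plk2, a stress kinase, averaged 47.6 ± 1.4 CPM in coculture and 23.6 ± 1 CPM alone.

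Of the PARP genes, Parp1 and Parp2 were not called, and Parp3, which was named after its value was seen, rose by 0.34 on the log2 scale. Parp1, the main target of olaparib, had 151, 149 and 144 CPM in coculture, against 148, 144 and 146 CPM alone, with overlapping groups and adjusted p = 0.59. Parp2 averaged 11.9 ± 0.48 CPM in coculture and 13 ± 0.14 CPM alone, adjusted p = 0.15. Of 21 PARP and cGAS-STING genes 11 rose and 5 fell, with a median of 0.12; the number lower was 3 without coculture replicate 2. The rises included Parp12, an interferon-inducible family member, at 25.4 ± 0.4 CPM in coculture and 14.6 ± 0.39 CPM alone, and Tmem173, the gene of STING, at 46.6 ± 1.7 CPM in coculture and 37.7 ± 1.5 CPM alone. Enpp1, which degrades the messenger that activates STING, fell to 8.47 ± 0.85 CPM in coculture, against 19.3 ± 0.076 CPM alone. Mb21d1, the gene of the DNA sensor cGAS, was at 4.33 ± 0.27 CPM in coculture and 4.19 ± 0.3 CPM alone, adjusted p = 0.71.

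Immediate early genes and feedback genes of the ERK pathway fell in 24 of 35 tested members and rose in 6, with a median of -0.30. Egr3 had 9.35, 9.76 and 9.21 CPM in coculture, against 20.3, 20.5 and 20.2 CPM alone, and Egr1 averaged 8.94 ± 0.53 CPM in coculture and 17 ± 0.86 CPM alone; both are zinc finger factors induced within minutes by growth factors. Dusp6, a phosphatase that turns ERK off, averaged 81.1 ± 2.4 CPM in coculture and 100.1 ± 0.35 CPM alone, and Etv4, a transcription factor downstream of ERK, 58.9 ± 0.52 CPM in coculture and 83.7 ± 2.2 CPM alone. Klf4 and Atf3 rose within the same list, by 0.63 ± 0.02 and 0.64 ± 0.04. Ccnd1, the D-type cyclin gene, averaged 447 ± 1.5 CPM in coculture and 498 ± 5.5 CPM alone, a change of -0.15 ± 0.02.

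Hypoxia and glycolysis genes fell in 24 of 36 members and rose in 6, with a median of -0.14. Slc2a3, a glucose transporter, had 165, 163 and 169 CPM in coculture, against 357, 360.2 and 365 CPM alone. The groups were far apart, with a change of -1.12 ± 0.03, adjusted p = 3.3e-29. Egln3, an oxygen-sensing hydroxylase, averaged 376 ± 6.5 CPM in coculture and 595 ± 2.6 CPM alone, and Ankrd37, a HIF target, 8.97 ± 0.13 CPM in coculture and 18.7 ± 0.65 CPM alone. Slc2a1, the main glucose transporter, changed by -0.14 ± 0.02. Genes of sterol and fatty acid synthesis, driven by SREBP factors, fell in 22 of 34 members and rose in 3, with a median of -0.12. Scd1, a fatty acid desaturase, averaged 550.0 ± 5.2 CPM in coculture and 727 ± 9.6 CPM alone, a change of -0.40 ± 0.02. Cyp51, a demethylase of the sterol pathway, averaged 204 ± 2 CPM in coculture and 258 ± 4.6 CPM alone, and Hmgcs1, which makes the precursor of mevalonate, 86.1 ± 1.2 CPM in coculture and 109.6 ± 1.6 CPM alone. Insig1, which holds SREBP in the endoplasmic reticulum, rose by 0.11 ± 0.03. Of 9 tested LXR targets and cholesterol export genes 4 rose and 5 fell, with a median of -0.09. Abca1, the pump that exports cholesterol, fell to 19.2 ± 0.26 CPM in coculture, against 59.7 ± 0.3 CPM alone, a change of -1.63 ± 0.05.

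More matrix genes and keratins fell than rose. Of 34 tested collagens and matrix proteins 16 fell and 9 rose, with a median of -0.43, which was -0.21 without alone replicate 1. Fn1, the gene of fibronectin, had 5938, 5905 and 5885 CPM in coculture, against 9151, 9284 and 9271 CPM alone. Col6a3, a chain of the microfibrillar collagen, had 24.3, 26.2 and 25.1 CPM in coculture, against 83.9, 83.8 and 84.8 CPM alone. Neither pair of groups overlapped, and the changes were -0.64 ± 0.02 and -1.74 ± 0.04. Col3a1, a fibrillar collagen, averaged 326 ± 6.2 CPM in coculture and 555 ± 5.1 CPM alone, and Col16a1 159 ± 4.7 CPM in coculture and 255 ± 6.2 CPM alone. Of 23 matrix proteases and inhibitors 10 rose and 8 fell, with a median of 0.10: Timp3 and Timp2, inhibitors of metalloproteases, rose by 0.91 ± 0.03 and 0.59 ± 0.02, and Mmp10, a stromelysin, fell to 11.9 ± 0.52 CPM in coculture, against 30.6 ± 1.4 CPM alone. Of 14 tested keratins and junction genes 8 fell and 0 rose, with a median of -0.52. Krt18 had 66.6, 63.6 and 61.5 CPM in coculture, against 126, 129 and 129.5 CPM alone, and its pairing partner Krt8 15.8, 16.4 and 15.1 CPM in coculture, against 31.9, 30.2 and 32.1 CPM alone. The coculture libraries lay below each library grown alone for both, with changes of -1.01 ± 0.04 and -0.99 ± 0.06. Of 20 mesenchymal genes 4 rose and 10 fell, with a median of -0.07.

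The largest falls among well expressed genes were in Ttn and Sv2c. Ttn, the giant sarcomere protein titin, averaged 2.63 ± 0.37 CPM in coculture and 15.6 ± 1.4 CPM alone, and Sv2c, a synaptic vesicle protein, 2.1 ± 0.3 CPM in coculture and 11.4 ± 0.7 CPM alone, changes of -2.57 ± 0.13 and -2.43 ± 0.12. Nrgn, a calmodulin-binding neuronal protein, had 9.48, 8.78 and 9.01 CPM in coculture, against 33.8, 34 and 33.4 CPM alone. Nid2, a basement membrane protein, Notch3, a receptor of the Notch family, and Itgb8, an integrin that activates TGF-beta, fell, with changes of -1.93 ± 0.09, -1.87 ± 0.13 and -1.83 ± 0.12. Reads that fell in no gene also differed, at 18.8% to 19.72% of counted reads in coculture and 21.29% to 21.31% alone; their part in the falls was not tested.

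The coculture effect with olaparib was then set against the same effect with DMSO, which rests on 6 other vector libraries. With DMSO, coculture called 6710 genes (42%), 3736 higher and 2974 lower. Of the 4077 genes higher with olaparib 2825 were also higher with DMSO, which is 69.3% of the one list and 75.6% of the other, and 1.84% were lower. Of the 2957 genes lower with olaparib 1767 were also lower with DMSO (59.8% and 59.4%), and 4.5% were higher. Over all tested genes 23.4% were higher and 18.6% lower with DMSO. Across the 15962 genes the 2 effects had a Pearson correlation of 0.575, as a description over genes that share libraries. The difference of the 2 effects was called in 2186 genes (13.7%), 1144 more positive with olaparib and 1042 more negative; with scaling by library size alone the split was 1586 and 808. The 3 vector DMSO libraries grown alone included 2 with Lyz2 at 3.38 and 4.36 CPM, against 0.70 CPM in the third. Without those 2 libraries 1161 genes were called, 547 more positive and 614 more negative, which leaves 1 library in that group.

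Genes of metabolism and proliferation had a more negative coculture effect with olaparib than with DMSO. Over all tested genes the difference was negative in 6.53% and positive in 7.17%. Hypoxia and glycolysis genes had a median effect of -0.14 with olaparib and 0.14 with DMSO, and the difference was negative in 27 of 36 and positive in 0. Without the 2 libraries it was negative in 26. Slc2a1 changed by -0.14 ± 0.02 with olaparib and by 0.34 ± 0.02 with DMSO, a difference of -0.48 ± 0.03, adjusted p = 2.1e-15. Bnip3, a mitophagy receptor, and Egln1, the main oxygen-sensing hydroxylase, had differences of -0.57 ± 0.04 and -0.54 ± 0.03. Sterol and fatty acid genes had a more negative effect in 25 of 34 members (21 without the 2 libraries), and S phase genes in 20 of 40 (13 without them). Mitosis genes fell under both treatments, in 37 of 38 with olaparib and 30 of 38 with DMSO, with medians of -0.46 with olaparib and -0.23 with DMSO; the difference was called in 24 of 38, and in 12 without the 2 libraries. Chaperone genes rose under both, in 23 of 26 with olaparib and 24 of 26 with DMSO, with medians of 0.56 and 0.67, with a smaller rise with olaparib in 20 of 26 members (18 without the 2 libraries). Of the 8 genes with the smallest adjusted p, Arrb1, a scaffold of G protein-coupled receptors, had the largest difference: -0.46 ± 0.03 with olaparib and 0.46 ± 0.03 with DMSO. Krt18 and Krt19 also differed, by -0.66 ± 0.05 and -0.90 ± 0.08.

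The difference between olaparib and DMSO was positive in 5 of 24 NF-kB genes, negative in 3 and not called in 16, with a median of 0.036. The share called was 33.3%, above the 13.7% of all tested genes, which had 7.17% positive and 6.53% negative. Chemokines and cytokines had 1 positive and 1 negative of 14 (14.3%), near the share of all tested genes. Among genes with a call, Csf1 rose by 1.09 ± 0.03 with olaparib and 0.58 ± 0.03 with DMSO, a difference of 0.51 ± 0.04, adjusted p = 5e-12. Relb, Myc and Serpina3n had differences of 0.53 ± 0.08, 0.59 ± 0.09 and 1.01 ± 0.13. Acute phase and complement genes had a more positive effect in 5 of 9 members, and 3 of 9 without the 2 libraries. For interferon genes the difference was called in 2 of 40 interferon-stimulated genes (5%, against 13.7% of all tested genes) and in 0 of 8 GTPases. That does not show equal effects: for Isg15 they were 1.61 ± 0.15 with olaparib and 2.20 ± 0.16 with DMSO, a difference of -0.59 ± 0.24 with adjusted p = 0.098.

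**Figure D3:**
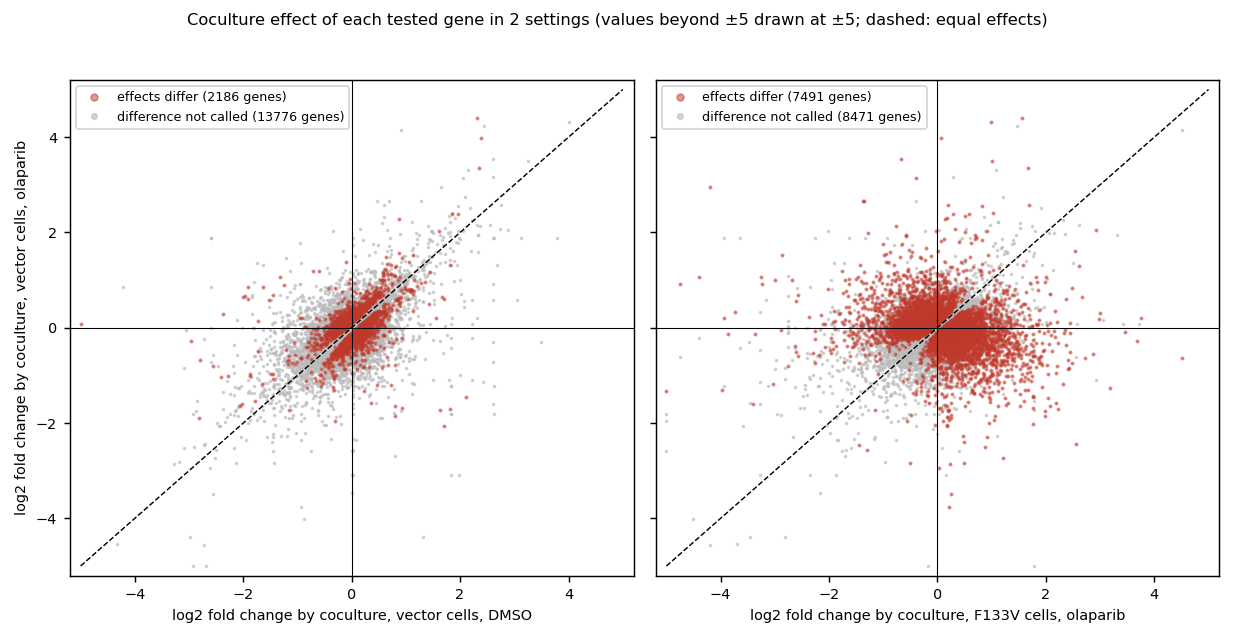
Coculture effect (log2 fold change) of each tested gene in vector cells with olaparib (y axis) against vector cells with DMSO (left, x axis) and F133V cells with olaparib (right, x axis); red points are genes whose 2 effects differed, grey points the others, and the dashed line marks equal effects. Points follow the dashed line on the left, where 2186 genes differed, and scatter around it on the right, where 7491 differed; 3 and 6 genes beyond the axis limit of 5 are drawn at it.

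The coculture effect differed between vector and F133V cells in more genes than between olaparib and DMSO. In F133V cells with olaparib, coculture called 8499 genes (53.2%), 4268 higher and 4231 lower. Of the 4077 genes higher in vector cells 1654 were also higher in F133V cells (40.6% and 38.8% of the lists) and 1199 were lower. Of the 2957 lower ones 874 were also lower (29.6% and 20.7%) and 1113 were higher (37.6%). Over all tested genes 26.7% were higher and 26.5% lower in F133V cells, so that the shared falls were near that share. The correlation over genes was 0.102. The difference of the 2 effects was called in 7491 genes (46.9%), 4006 more positive in vector cells and 3485 more negative; with library size alone these were 4840 and 2963, and without F133V coculture replicate 3 they were 3514 and 3565. Of the 7491 genes 1149 differed at least 2-fold.

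Many metabolic and mitotic genes moved in opposite directions in the 2 genotypes. Slc2a3 changed by -1.12 ± 0.03 in vector cells and by 1.60 ± 0.03 in F133V cells, a difference of -2.72 ± 0.04, adjusted p = 5e-37. Of the 36 hypoxia and glycolysis genes 23 were called lower in vector cells and higher in F133V cells, as were 29 of 38 mitosis genes, 21 of 34 sterol and fatty acid genes and 13 of 40 S phase genes. Over all tested genes this held for 1113 of 15962. The medians in F133V cells were 0.74 for hypoxia and glycolysis, 0.37 for mitosis and 1.03 for sterol and fatty acid synthesis. Scd2, another desaturase, changed by -0.36 ± 0.02 in vector cells and 2.37 ± 0.02 in F133V cells. Ace, the angiotensin-converting enzyme, changed by -1.54 ± 0.03 in vector cells and 1.60 ± 0.04 in F133V cells, and Col3a1 had a difference of -1.97 ± 0.04. In the other direction, Ly6c1, a surface antigen, rose by 1.18 ± 0.03 in vector cells and changed by -1.35 ± 0.04 in F133V cells.

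**Figure D4:**
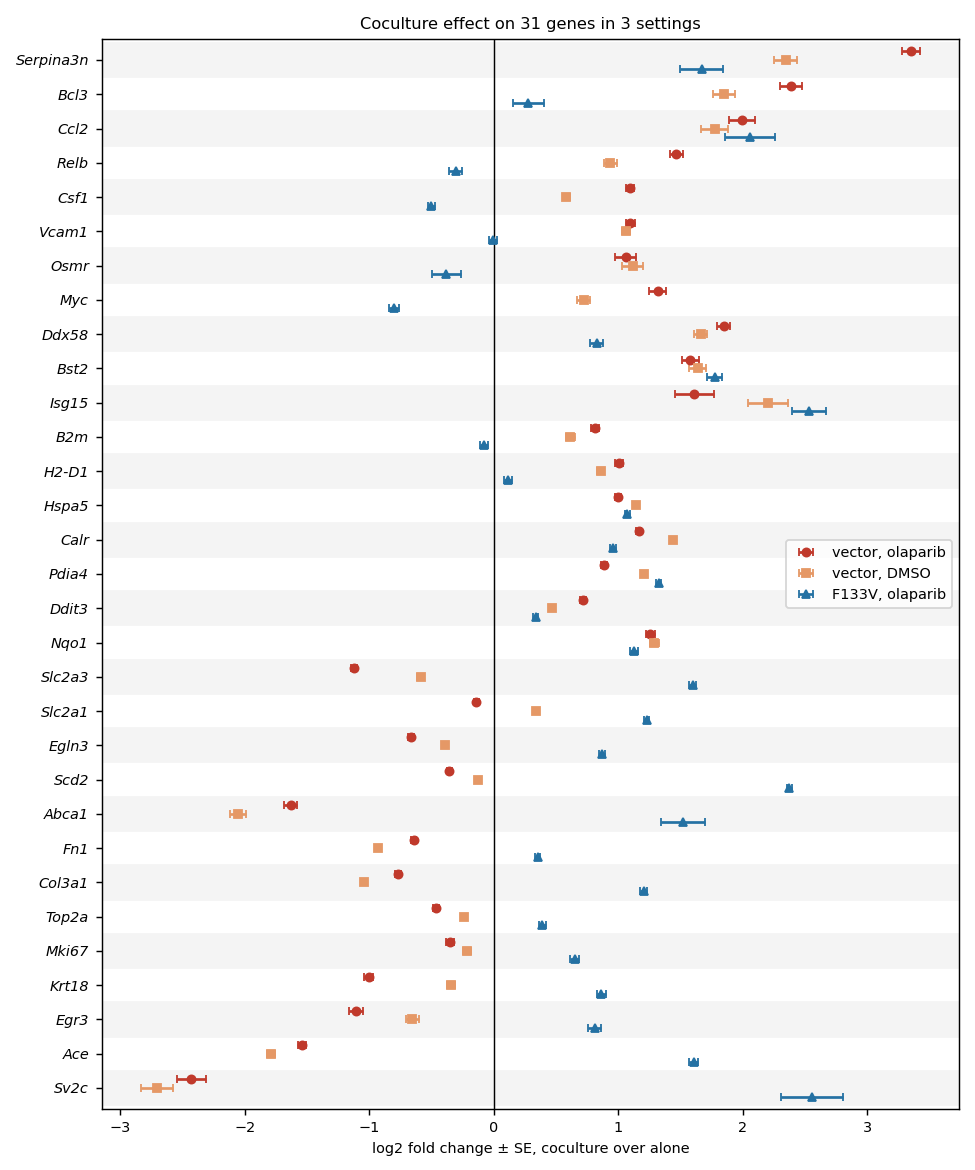
Log2 fold change ± SE (coculture over alone) of 31 genes in vector cells with olaparib (circles), vector cells with DMSO (squares) and F133V cells with olaparib (triangles). For Hspa5, Calr, Bst2 and Nqo1 the 3 symbols lie on the same side of 0, whereas for Csf1, Myc, Slc2a3, Ace and Sv2c the F133V symbol lies opposite to the other two.

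NF-kB genes differed by genotype as well. Csf1 changed by 1.09 ± 0.03 in vector cells and by -0.50 ± 0.03 in F133V cells, a difference of 1.60 ± 0.04, adjusted p = 1.3e-29. Relb and Myc also had effects of opposite sign, 1.46 ± 0.05 and -0.31 ± 0.05 for Relb and 1.31 ± 0.07 and -0.80 ± 0.04 for Myc. B2m rose by 0.81 ± 0.03 in vector cells and fell slightly in F133V cells, to a log2 fold change of -0.08 ± 0.03. Over the NF-kB list the difference was positive in 15 of 24 members and negative in 5 (83.3% called, against 46.9% of all tested genes). Tnfaip3, not called in vector cells, rose by 1.27 ± 0.07 in F133V cells. Chaperones rose in both genotypes, in 23 of 26 in vector cells and 26 of 26 in F133V cells. Their medians were 0.56 in vector cells and 1.00 in F133V cells. The difference was more negative in vector cells in 20 of 26 members and more positive in 1 (80.8% called, against 46.9% of all tested genes). Hspa5 rose by 1.00 ± 0.02 in vector cells and 1.07 ± 0.02 in F133V cells. The interferon-stimulated genes had medians of 0.99 in vector cells and 0.85 in F133V cells. For them a difference was called in 17 of 40 (42.5%, against 46.9% of all tested genes). Bst2 rose by 1.58 ± 0.07 and 1.77 ± 0.06, and Ccl2 by 1.99 ± 0.11 and 2.06 ± 0.20.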

How the data were processed

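The cancer cells were sequenced as bulk RNA, and the authors deposited raw counts of reads per gene for each library, whole numbers with no normalization; the counting settings and the use of strand are not stated. The submitters' processing notes name TopHat, STAR, HTSeq and DESeq2 and the build GRCm38, without roles. Rows that name no gene (reads in no gene, ambiguous, not unique) were left out of library sizes: of the reads in the 6 libraries, 18.8% to 21.31% fell in no gene, 1.2% to 1.28% in several and 6.17% to 6.7% did not align uniquely. Across the series 36 libraries held 30292309 to 43062440 gene counts over 46078 genes, and no pair of libraries within a group was identical.

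Genes were kept by filterByExpr with a minimum count of 10, scaled by TMM and fitted in edgeR 4.0.16 (R 4.3.3) with the 24 cancer-cell libraries in 8 groups of 3, which share 1 estimate of the spread. The quasi-likelihood test gave p-values, adjusted over 15962 genes by Benjamini-Hochberg; the SE is the size of the log2 fold change over the square root of F. Fitted fold changes of genes near 0 counts depend on the prior count. Alternatives used DESeq2 1.42.0, other scalings, filters, sample sets, a length and GC correction and a test against 1.2-fold. Promoters were read from RefSeq tables; coordinates are GRCm38.p6. Figures used matplotlib 3.10.9.

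The libraries, gene lists and comparisons were chosen with earlier results of these data known. Genes named were a set of preset genes, the 10 largest rises and 10 largest falls among called genes whose groups did not overlap and whose higher group reached 5 CPM, up to 5 called members of each list by smallest adjusted p, and 8 genes per difference of effects; 209 genes met the rule, and the text gives part of them; some results are not reported here. Of the 209, 67 share exon positions with another gene, so that their counts are uncertain without strand; among all genes printed, those added in the closing section included, these are Ace, Angpt1, Ankrd37, Bcl3, Bnip3, Brca2, C1s1, Ccnd1, Cd274, Cd74, Cdkn1a, Cebpd, Col3a1, Cp, Csf2rb, Cyp51, Ddit3, Fancd2, Fn1, Gbp7, Gclm, Hmgcs1, Igtp, Irf7, Irf9, Irgm2, Krt8, Lef1, Manf, Mb21d1, Mmp11, Nfkb2, Nid2, Nlrc5, Notch3, Nrxn2, Parp1, Parp14, Parp3, Pdia3, Pdia4, Ppp1r15a, Ptgs1, Scd2, Slc2a1, Slpi, Sned1, Stat3, Tap1, Tapbp, Tgfb2, Timp3, Tiparp, Top2a, Ttn, Unc13a and Vcam1.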

Additional observations from a re-analysis of the deposited data

Results flagged for a closer look

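The coculture effect in vector cells differed between treatments, by the test of the difference itself, in 2186 genes, and between genotypes in 7491 genes. The genes given here were among those with the smallest adjusted p in each test, with at least 5 CPM in 1 of the 4 groups. Values are differences between coculture effects on the log2 scale, with SE, by edgeR's quasi-likelihood test.

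Olaparib over DMSO, the effect was more negative for Slc2a1 (-0.48 ± 0.03), Egln1 (-0.54 ± 0.03), Bnip3 (-0.57 ± 0.04) and Arrb1 (-0.92 ± 0.04). It was also more negative for Rnf217, a ubiquitin ligase gene (-0.71 ± 0.04), and Tbl2 (-0.64 ± 0.04). It was more positive for Sned1, a matrix protein gene (0.61 ± 0.03), and Mmp11, the metalloprotease stromelysin 3 (0.72 ± 0.04). Mmp11 averaged 97 ± 1.1 CPM in coculture and 79 ± 0.81 CPM alone with olaparib, and its effect was 0.30 ± 0.03 with olaparib and -0.42 ± 0.03 with DMSO. Sned1 averaged 409 ± 2.1 CPM in coculture and 354 ± 4.7 CPM alone with olaparib, and its effect was 0.21 ± 0.02 with olaparib and -0.40 ± 0.02 with DMSO. The 2 DMSO libraries with higher Lyz2 are both in the group that enters this difference; their part in it was tested by leaving them out, and each of these 8 genes stayed called with the same sign.

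Vector over F133V cells, the effect was more negative for Col3a1 (-1.97 ± 0.04), Slc2a3 (-2.72 ± 0.04) and Ace (-3.14 ± 0.05). The desaturases Scd1 and Scd2 had differences of -1.84 ± 0.03 and -2.73 ± 0.03, and Arrb1 had -2.43 ± 0.04. Arrb1 changed by -0.46 ± 0.03 in vector cells and 1.96 ± 0.03 in F133V cells. Ly6c1 had a difference of the other sign, 2.53 ± 0.05. Each of these genes kept its sign and its call under the alternatives tried.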

How the results depend on the processing

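The number of genes called for coculture with olaparib was 7034 and ranged over 6275 to 6471 when each library was left out. It was 1738 in the test against a 1.2-fold change, which asks for larger effects. The share of calls that were higher was 58.0%, and 51.9% with library size alone. The difference of olaparib and DMSO effects was called in 2186 genes, in 1750 to 1981 with each library left out, and in 1161 without the 2 Lyz2 libraries, an alternative chosen after the data were seen because the planned limit of 1.5 times the usual macrophage sum removed 0 libraries; the lone library left is assumed to vary like other groups. With library size alone 66.2% of its calls were more positive, against 52.3%. The difference between genotypes was called in 7491 genes, and in 7079 to 7568 with each library left out. Replicate numbers did not pair the libraries, with correlations of 0.003, 0.003 and -0.042 for the same number; with the replicate block 7070, 2247 and 7537 genes were called. No gene named by the rule changed sign under an alternative where it was called in the main fit or in that alternative. Sign changes of genes called in neither were not counted. Calls were lost in 71 combinations of gene and setting and gained in 6 in the first comparison, in 43 genes. Outside the 1.2-fold test, Cd274, Spop, Fos, Tgfb2 and Cd79a each lost a call under at least 1 alternative, for Spop DESeq2 with adjusted p = 0.053, and Ptges, Parp2 and Ifit1 gained one. In lists with 0 to 2 members called against the others, that count moved by 1 without 1 of the 6 libraries for acute phase, chaperone, interferon-stimulated, S phase, recombination and lysosome genes. Genes near or below 1 CPM rest on few reads, and their groups' spread sets what could be called.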

Other observations

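Some genes outside the lists, chosen after their values were seen, rose by large factors and are given as values. Cyp1b1, a cytochrome P450 that the aryl hydrocarbon receptor induces, had 2.74, 3.48 and 3.02 CPM in coculture, against 0.21, 0.127 and 0.107 CPM alone, and 0 counts in the RAW264.7 cells of the coculture. Its log2 fold change was 4.33 ± 0.35 with olaparib, 4.01 ± 0.45 with DMSO and 0.98 ± 0.70 in F133V cells with olaparib, where it was not called. Tiparp, another target of that receptor, averaged 174 ± 3.3 CPM in coculture and 101 ± 2.1 CPM alone, a change of 0.79 ± 0.03. Its rise was 0.91 ± 0.03 with DMSO and larger, 1.27 ± 0.03, in F133V cells with olaparib. Ly6a, the surface antigen Sca-1, averaged 132 ± 2.3 CPM in coculture and 50.6 ± 0.21 CPM alone and was at 0.066 CPM in the macrophages. Its effect was 1.38 ± 0.04 in vector cells and -0.96 ± 0.04 in F133V cells with olaparib. Slpi, a secreted inhibitor of elastase, averaged 3.95 ± 0.37 CPM in coculture and 1.51 ± 0.14 CPM alone.

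Values of 4 more genes chosen after they were seen follow, beside their levels in the macrophages. Csf2rb, the shared receptor chain for GM-CSF, averaged 2.92 ± 0.29 CPM in coculture and 0.594 ± 0.18 CPM alone, against 71.8 CPM in the macrophages. Cd74, the invariant chain of MHC class II, averaged 2.54 ± 0.28 CPM in coculture and 0.478 ± 0.0088 CPM alone (235 CPM in the macrophages), and Itgb2, the integrin chain CD18, 2.19 ± 0.19 CPM in coculture and 0.606 ± 0.087 CPM alone (555 CPM). Lyz2, far more abundant in macrophages, was at 0.844 ± 0.11 CPM in coculture and 0.761 ± 0.087 CPM alone in the same libraries. Of the summed macrophage markers, Cd68 alone made up 4.82 CPM in coculture and 10.5 CPM alone, while Ctss was at 0.427 CPM in coculture and 0.239 CPM alone and Coro1a at 0.134 CPM in coculture and 0.0421 CPM alone. Blnk, an adaptor of B cell receptor signalling, averaged 22.2 ± 1 CPM in coculture and 7.79 ± 0.14 CPM alone (53.3 CPM in the macrophages). The part of macrophage RNA in these rises was not tested for each gene.

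Lef1 and Tcf7, transcription factors of the Wnt pathway, fell with coculture in all 3 settings. Lef1 averaged 2.73 ± 0.59 CPM in coculture and 7.84 ± 0.4 CPM alone, with effects of -1.52 ± 0.12, -1.57 ± 0.13 in vector cells with DMSO and -1.77 ± 0.19 in F133V cells. Tcf7 averaged 1.2 ± 0.13 CPM in coculture and 2.92 ± 0.33 CPM alone, with effects of -1.29 ± 0.15, -1.53 ± 0.15 and -0.98 ± 0.14 in the same order. Of 3 other genes chosen after their values were seen, Nrxn2, a presynaptic adhesion gene, averaged 9.72 ± 0.36 CPM in coculture and 25.6 ± 0.8 CPM alone, Unc13a, which primes synaptic vesicles, 13.8 ± 0.19 CPM in coculture and 30 ± 2 CPM alone, and Nptx1, a neuronal pentraxin, 19.1 ± 0.81 CPM in coculture and 39 ± 1.4 CPM alone. In F133V cells with olaparib the effect on Unc13a was 0.91 ± 0.08 and that on Nptx1 1.62 ± 0.08, both opposite in sign to vector cells. Nrxn2 fell in both genotypes, with effects of -1.40 ± 0.06 in vector cells and -0.40 ± 0.06 in F133V cells. Mertk, a receptor for dying cells, averaged 13 ± 0.22 CPM in coculture and 26 ± 1.1 CPM alone and changed by -1.01 ± 0.06 in vector cells and 0.99 ± 0.09 in F133V cells.

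Noncoding transcripts are given with the shares of all tested genes beside them. Of 583 unconfirmed transcripts in the annotation (TEC) 8 rose (1.37%) and 98 fell (16.8%), with a median of -0.25. Of 497 long intergenic RNAs 26 rose (5.23%) and 73 fell (14.7%), with a median of -0.16. Over all tested genes 25.5% rose and 18.5% fell, with a median of 0.005, and over 12547 protein-coding genes 31.6% rose and 20.8% fell. Reads in no gene made up 18.8% to 19.72% in coculture and 21.29% to 21.31% alone, and their part in this was not tested.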
